A study of Homo sapiens with 6 samples.

Results

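The genes described here are the cytosolic heat shock proteins and the machinery around them, a set of 38 genes chosen by function among the 20308 genes listed for every library. They comprise 2 heat shock factors, 4 cytosolic Hsp70 proteins, 3 proteins of the Hsp110 branch, 2 cytosolic Hsp90 proteins with 3 Hsp90 co-chaperones, 5 J proteins, 2 BAG proteins, 1 small heat shock protein, the 8 subunits of the chaperonin CCT and 5 subunits of prefoldin. The remaining 3 members are proteins of the mitochondrial matrix, namely HSPA9, HSPD1 and HSPE1. Members were matched by gene symbol through their Ensembl identifiers, the rule uses no measured value, and all 38 were found.

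Hsp70 proteins bind exposed hydrophobic stretches of unfolded polypeptides in a cycle of ATP hydrolysis, in which J proteins deliver the client and start hydrolysis while Hsp110 and BAG proteins release the nucleotide. Clients such as kinases and steroid receptors, the androgen receptor among them, are handed on to Hsp90, whereas actin and tubulin are passed by prefoldin to the ring-shaped chaperonin CCT. Under proteotoxic stress the transcription factor HSF1 is released from its chaperones, forms trimers and binds heat shock elements, arrays of inverted nGAAn units, in front of the inducible chaperone genes.

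The study measured RNA in LNCaP-AI, a derivative of the prostate cancer line LNCaP that grows without androgen and serves as a model of castration-resistant prostate cancer. Cells carrying a stable short hairpin against METTL1, a methyltransferase that makes N7-methylguanosine in RNA, formed the group shMETTL1. Cells with a scrambled hairpin formed the group shscramble. Each group held 3 libraries of total RNA, and both groups were kept under androgen deprivation, so no library comes from androgen-supplied cells. The methods list a single hairpin sequence against METTL1, and no library with a second hairpin was analysed here.

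METTL1 itself was lower in the shMETTL1 group. It stood at 13.9, 18.5 and 21.0 FPKM (sequenced fragments per kilobase of transcript, relative to the depth of a library) in shscramble replicates 1 to 3 and at 8.35, 10.5 and 8.18 FPKM in shMETTL1 replicates 1 to 3. The groups did not overlap, the exact two-sided permutation test gave p = 0.1, which is the smallest p that 3 libraries against 3 allow, and edgeR on the estimated counts called the decrease (log2 fold change -1.36, adjusted p = 0.0368), whereas limma on FPKM did not (log2 fold change -0.93, adjusted p = 0.127). The edgeR call was lost without shscramble replicate 3 (adjusted p = 0.187), without shMETTL1 replicate 1 (adjusted p = 0.142) and without shMETTL1 replicate 3 (adjusted p = 0.109). The estimated counts of METTL1 were low, at 36.4, 48.6 and 65.1 in shscramble and 9.52, 28.5 and 20.5 in shMETTL1. Its FPKM per estimated count varied 2.72-fold between libraries, where the median gene varied 1.34-fold.

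The libraries held between 3389897 and 3604835 estimated counts, a range of 1.06-fold, and chaperone genes took 1.10% to 1.26% of the counts in shscramble and 1.20% to 1.48% in shMETTL1. All 10 markers of prostate luminal and LNCaP identity were expressed, with a summed level of 2610 to 2669 FPKM in shscramble and 2097 to 2355 FPKM in shMETTL1. These markers did not move together, with limma log2 fold changes above 0 for 6 and below 0 for 4 (median 0.095, range -1.08 to 0.38). Limma called 1 of the 10, beside 0.123% of all genes. By edgeR 0 were called higher and 3 lower, beside 2.68% and 3.65% of all genes. The summed level was 9.17 to 14.8 FPKM against 5.98 to 12 FPKM for 7 stromal markers, with DCN and LUM listed at 0. It was 11.9 to 17.0 FPKM against 6.16 to 8.24 FPKM for 6 immune and endothelial markers, nearly all of it CD68, with PTPRC, CD3E and CDH5 listed at 0, and 0.885 to 4.72 FPKM against 0 to 1.6 FPKM for 3 basal markers, with KRT5 listed at 0. The luminal sum and the immune and endothelial sum did not overlap between groups, and their part in the results on chaperones was not tested. The library shscramble replicate 2 was closer to the shMETTL1 libraries than to its own group. Across the 12156 genes tested, its log2 values correlated with those of the 3 shMETTL1 libraries at 0.946, 0.953 and 0.952 and with those of the other shscramble libraries at 0.936 and 0.945, a description that carries no test.

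The heat shock system as a whole moved little, and the members that passed edgeR lay among the cytosolic Hsp70 genes and the Hsp110 branch. HSPA1B, HSPA8 and HSPH1 rose in shMETTL1 by edgeR, no member fell, and 34 of the 37 members tested did not pass. The background for that test was 2.68% of 11248 genes called higher and 3.65% called lower. By limma on FPKM, with the same Benjamini-Hochberg threshold of 0.05, 0 of 37 members were called, where 0.123% of 12156 genes were called in either direction. At an unadjusted limma p under 0.05 there were 5 members higher and 0 lower, beside 7.37% and 6.80% of all genes.

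The median log2 fold change of the 37 tested members was 0.12 by limma and 0.11 by edgeR, beside medians over all genes tested of 0.02 and 0.00. In FPKM the values of the groups did not overlap for 7 members that lay higher in shMETTL1 (HSF1, HSPA1B, HSPA8, HSPH1, DNAJA1, BAG1 and CCT4) and for 1 that lay lower (HSF2), beside 10.5% and 9.33% of all genes, and the groups overlapped for the other 29. Of those, HSPA9, HSPA4L, AHSA1, DNAJB1, DNAJB6, TCP1, CCT2 and CCT3 had estimated counts that lay higher in shMETTL1 without overlap. The counts of HSF1 and BAG1 overlapped. No share over all genes was taken for the counts, so their separation is a description only. Only HSPA1A, at a mean of 0.322 FPKM, was too low to be tested. Since RNA was measured in bulk, more cells that express a gene and more RNA of that gene per cell cannot be told apart.

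**Figure D1:**
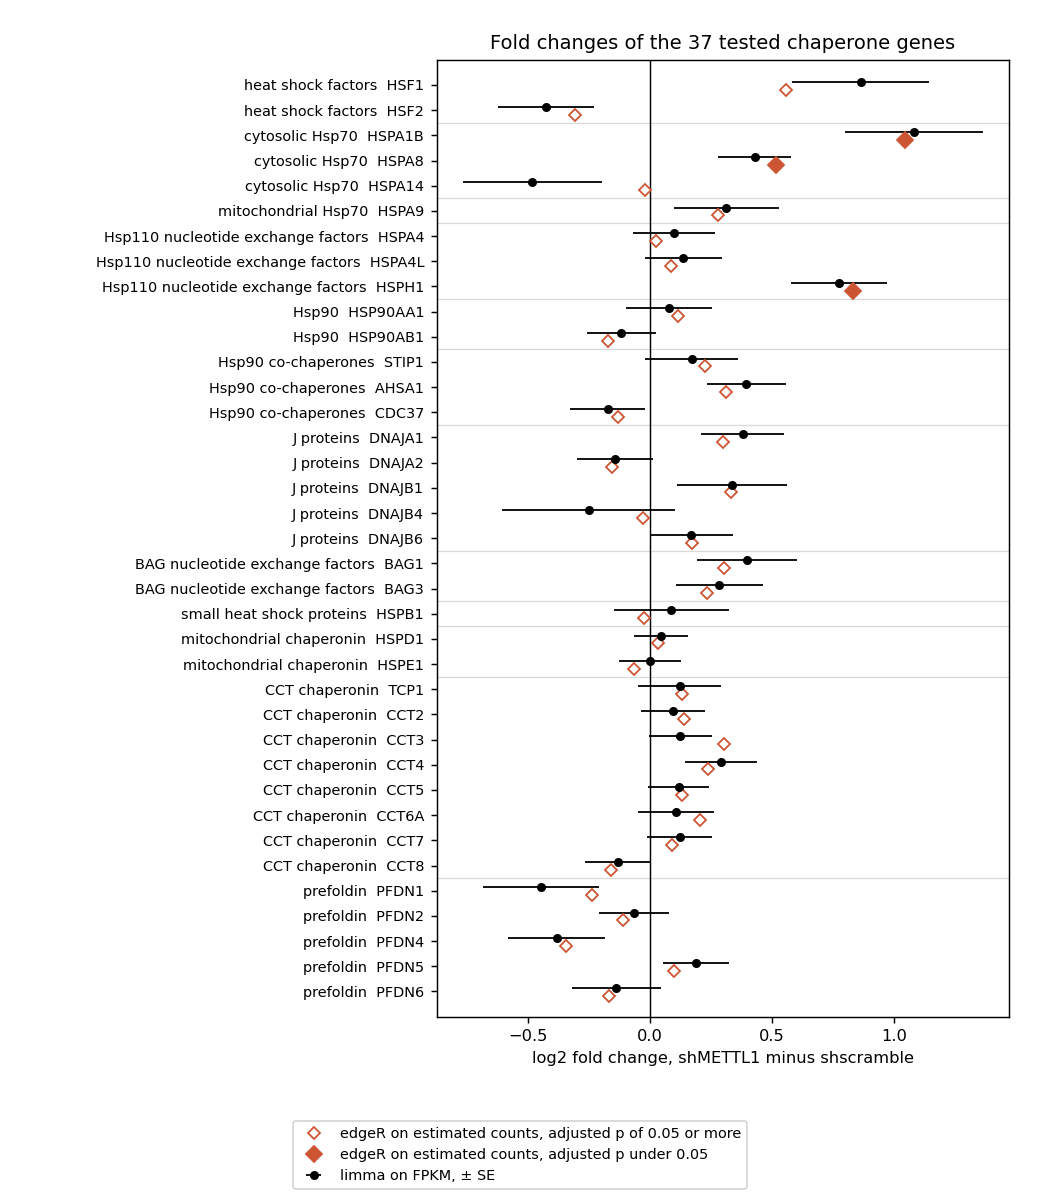
Log2 fold changes of the 37 tested chaperone genes, with shMETTL1 above shscramble to the right, ordered by role. Black points with bars are limma on FPKM with the standard error, and diamonds are edgeR on the estimated counts, filled where the adjusted p was under 0.05. Filled diamonds are seen for HSPA1B (1.05), HSPA8 (0.52) and HSPH1 (0.83) and for no other gene.

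Among the inducible Hsp70 genes, HSPA1B carried the largest fold change of all members. HSPA1B encodes the classical stress-inducible Hsp70. It was measured at 14.2, 13.6 and 11.8 FPKM in shscramble replicates 1 to 3 and at 30.5, 17.9 and 41.9 FPKM in shMETTL1 replicates 1 to 3. All shMETTL1 libraries lay above all shscramble libraries, and they differed among themselves far more, with an SD of 12 FPKM around a mean of 30.1 against an SD of 1.27 around a mean of 13.2 (n = 3 each). HSPA1B rose 2.06-fold by edgeR (adjusted p = 0.00870), and limma gave a log2 fold change of 1.08 ± 0.28 (SE) with an adjusted p of 0.163. The edgeR call was lost without shscramble replicate 3 (adjusted p = 0.0610), without shMETTL1 replicate 1 (adjusted p = 0.0539) and without shMETTL1 replicate 3 (adjusted p = 0.0717).

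HSPA1A, the near-identical neighbour of HSPA1B, was listed close to 0. Its values were 0.384, 0.480 and 0.129 FPKM in shscramble and 0.379, 0.293 and 0.267 FPKM in shMETTL1, and its estimated counts ran from 0.931 to 3.74. Of the windows of 100 bases along its longest coding transcript (GENCODE v29), 69.9% occur unchanged in HSPA1B, so the division of reads between both genes is uncertain. Their sum does not depend on that division. It was 13.5 ± 1.43 FPKM (SD, n = 3) in shscramble and 30.4 ± 12 FPKM in shMETTL1, with an exact two-sided permutation p of 0.1.

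HSPA8, the constitutive Hsp70 and the most abundant member, stood at 964, 789 and 876 FPKM in shscramble and at 1079, 1054 and 1433 FPKM in shMETTL1. The lowest shMETTL1 library exceeded the highest shscramble library. HSPA8 rose 1.43-fold by edgeR (adjusted p = 0.0435), while limma gave a log2 fold change of 0.43 ± 0.15 (SE) and an adjusted p of 0.261. The call was lost without shscramble replicate 3 (adjusted p = 0.182) and without any 1 of the shMETTL1 replicates 1 to 3 (adjusted p = 0.0825, 0.0513 and 0.181). No window of 100 bases of HSPA8 occurred in a transcript of another gene.

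HSPA14, a ribosome-associated Hsp70, had 12.6 ± 1.34 FPKM in shscramble and 9.36 ± 4.09 FPKM in shMETTL1, and neither test called it. Its FPKM and its estimated counts moved differently, with log2 fold changes of -0.48 by limma and -0.02 by edgeR. HSPA9, the Hsp70 of the mitochondrial matrix, had 195 ± 54.1 and 238 ± 38.9 FPKM (edgeR adjusted p = 0.175). HSPA8 made up 97.1% ± 0.198 of the summed level of the cytosolic Hsp70 genes in shscramble and 96.8% ± 0.772 in shMETTL1 (SD, n = 3, exact permutation p = 0.6).

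The Hsp110 proteins exchange the nucleotide on Hsp70, and of the 3 measured only HSPH1 passed a test. HSPH1, the stress-inducible Hsp110, had 17.0, 18.1 and 20.2 FPKM in shscramble and 31.6, 25.4 and 39.9 FPKM in shMETTL1. The groups did not overlap. HSPH1 rose 1.78-fold by edgeR (adjusted p = 0.00319), and this call was kept in all 10 alternatives to that fit, including the omission of each library, with adjusted p-values up to 0.0267. By limma its log2 fold change was 0.77 ± 0.20 (SE), the smallest unadjusted p of all members at 0.00330, and the adjusted p was 0.151. The paralogues HSPA4 (42.5 ± 4.22 and 45.8 ± 7.77 FPKM) and HSPA4L (22.9 ± 1.95 and 25.2 ± 1.67 FPKM) had edgeR adjusted p-values of 0.930 and 0.718.

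**Figure D2:**
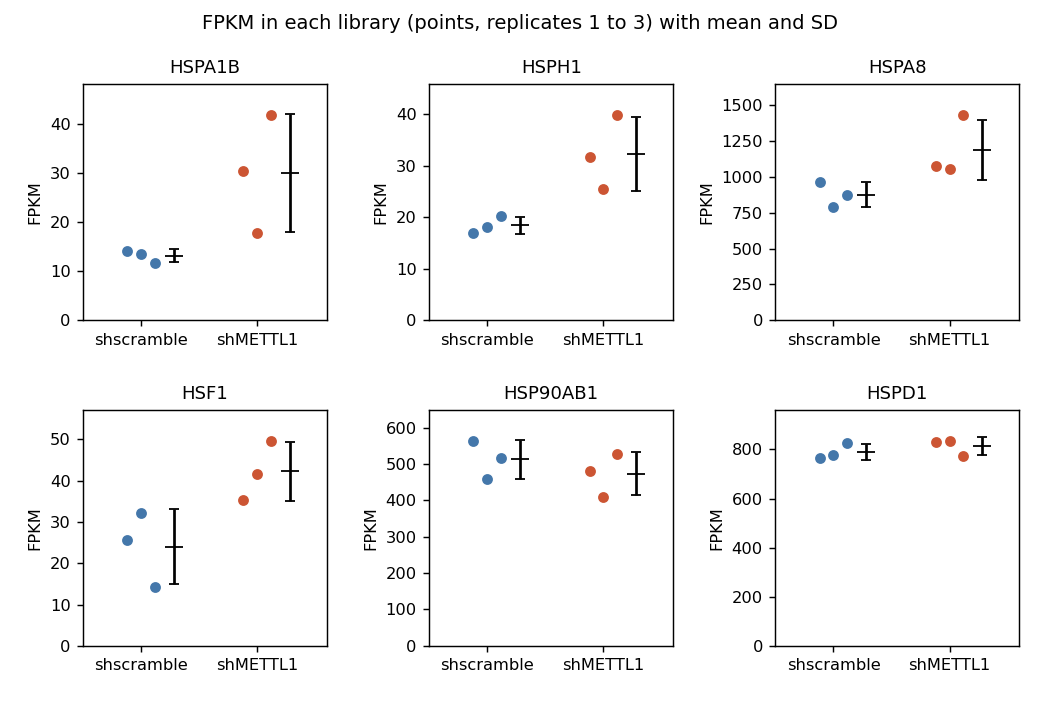
FPKM of 6 chaperone genes in each library, with blue points for shscramble and red points for shMETTL1 (replicates 1 to 3 from left to right) and bars for the mean and SD. The 3 shMETTL1 points lie above the 3 shscramble points for HSPA1B, HSPH1, HSPA8 and HSF1, while both groups overlap for HSP90AB1 and HSPD1.

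The heat shock factors are the transcription factors that bind the promoters of these genes. HSF1, the stress-responsive factor, had 25.7, 32.1 and 14.2 FPKM in shscramble and 35.4, 41.6 and 49.6 FPKM in shMETTL1. In FPKM all shMETTL1 values lay above those of shscramble, whereas the estimated counts of 187, 259 and 120 against 254, 300 and 306 overlapped. The limma log2 fold change was 0.86 ± 0.28 (SE) with an adjusted p of 0.235, and edgeR gave 0.56 with an adjusted p of 0.101. HSF1 was called by edgeR without the filter on low counts (adjusted p = 0.0137), with the replicate number as a block (adjusted p = 0.0267) and without shscramble replicate 2 (log2 fold change 0.80, adjusted p = 0.00484). Without shscramble replicate 3 the log2 fold change was 0.32 with an adjusted p of 0.348.

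HSF2, a second factor that can form mixed trimers with HSF1, lay in the other direction. It had 10.6, 13.6 and 11.8 FPKM in shscramble and 9.39, 8.53 and 8.42 FPKM in shMETTL1. The groups did not overlap in FPKM, but the estimated counts of 98.1, 122 and 101 against 97.9, 80.4 and 89.9 were separated only narrowly. HSF2 passed neither limma (log2 fold change -0.43, adjusted p = 0.368) nor edgeR (log2 fold change -0.31, adjusted p = 0.323).

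The promoters of the members were searched for heat shock elements, because the genes that rose and those that did not can both be read against them. Sequences were the 250 bases before each RefSeq gene start on GRCh38.p14, and 34 of the 38 members had at least 1 such window. The files were made on hg19, so these coordinates belong to the reference alone. A short element was counted as GAANNTTC or TTCNNGAA (2 inverted units) and a long one as GAANNTTC followed by NNGAA or TTCNNGAA followed by NNTTC (3 units), where N is any base. Each long element also contains a short one, and the pairs of patterns cover both strands. A short element was found in 15 of 34 members (44.1%), beside 14.0% of 27305 genes, and a long one in 5 of 34 (14.7%), beside 0.557% of genes.

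The elements of the Hsp70 and Hsp90 genes, of HSPD1 and of DNAJB1 are shown to set those with a tested rise beside those without one. They are printed 5′ to 3′ on the strand of the gene, with capitals for the long elements or, where a window held none, for the short ones. The capitals of HSPD1 cover overlapping long elements, and a separate short element of HSP90AA1 (ttctggaa) is left in lower case.
HSPA1A, chr6:31815417-31815464, plus strand: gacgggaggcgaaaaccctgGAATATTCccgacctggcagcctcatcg
HSPA1B, chr6:31827613-31827660, plus strand: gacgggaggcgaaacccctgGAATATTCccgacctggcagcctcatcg
HSPA8, chr11:123062159-123062211, minus strand: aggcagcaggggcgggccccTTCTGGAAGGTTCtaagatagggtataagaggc
HSPA8, chr11:123062334-123062386, minus strand: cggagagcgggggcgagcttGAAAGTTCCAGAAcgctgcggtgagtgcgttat
HSP90AA1, chr14:102087100-102087152, minus strand: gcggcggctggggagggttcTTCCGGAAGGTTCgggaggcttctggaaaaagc
HSP90AB1, chr6:44247811-44247863, plus strand: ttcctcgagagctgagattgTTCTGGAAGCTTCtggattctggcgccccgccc
HSP90AB1, chr6:44247758-44247810, plus strand: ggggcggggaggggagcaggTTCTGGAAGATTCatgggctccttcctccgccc
HSPD1, chr2:197500048-197500090, minus strand: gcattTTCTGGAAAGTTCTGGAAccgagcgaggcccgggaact
DNAJB1, chr19:14518447-14518494, minus strand: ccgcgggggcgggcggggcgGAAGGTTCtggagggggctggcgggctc
DNAJB1, chr19:14518417-14518464, minus strand: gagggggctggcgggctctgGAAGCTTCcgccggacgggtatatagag

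The long elements lay in the windows of HSPA8 (2 elements), HSP90AB1 (2 elements), HSP90AA1, HSPD1 and DNAJB6. In HSPA8 the nearer one spanned the bases 55 to 43 before the gene start. HSPA1A and HSPA1B each had 1 short element, which ended 99 and 98 bases before the start, and the single window of HSPH1 held none. The 3 genes called by edgeR thus comprised 1 with long elements, 1 with a short element and 1 with no match in this window. Of the 5 members with a long element, HSPA8 was called and HSP90AA1, HSP90AB1, HSPD1 and DNAJB6 were not.

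The cytosolic Hsp90 proteins and their co-chaperones did not pass either test. HSP90AA1, the inducible Hsp90 alpha, had 805, 569 and 757 FPKM in shscramble and 737, 625 and 885 FPKM in shMETTL1. HSP90AB1, the constitutive Hsp90 beta, had 564, 457 and 515 FPKM in shscramble and 482, 410 and 527 FPKM in shMETTL1. For both genes the groups overlapped, with limma log2 fold changes of 0.08 ± 0.18 and -0.12 ± 0.14 (SE) and adjusted p-values of 0.872 and 0.733.

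Taken as a share of both Hsp90 genes, HSP90AA1 made up 57.9% ± 2.18 (SD, n = 3) of their FPKM in shscramble and 61.2% ± 1.31 in shMETTL1. The 3 shMETTL1 libraries each had a higher share than every shscramble library, and the exact permutation p was 0.1. The ratio of HSPA8 to HSP90AB1, which was chosen after the values had been seen, was 1.71, 1.73 and 1.70 in shscramble and 2.24, 2.57 and 2.72 in shMETTL1. It was thus nearly constant within shscramble (1.71 ± 0.0124) and higher in each shMETTL1 library (2.51 ± 0.246). Since HSPA8 itself was called higher, the ratio is given as a description with no test.

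AHSA1, which stimulates the ATPase of Hsp90, had 84.7, 97.7 and 75.1 FPKM in shscramble and 124, 94.2 and 122 FPKM in shMETTL1. In FPKM the second shMETTL1 library fell within the range of shscramble. The estimated counts of AHSA1, 399, 400 and 357 in shscramble against 532, 449 and 508 in shMETTL1, did not overlap. AHSA1 passed neither limma (log2 fold change 0.40, adjusted p = 0.331) nor edgeR (0.31, adjusted p = 0.130). STIP1, the adaptor that joins Hsp70 to Hsp90, had 136 ± 30.8 and 152 ± 19.5 FPKM. CDC37, which brings kinases to Hsp90, had 137 ± 23.6 and 120 ± 8.52 FPKM. Their edgeR adjusted p-values were 0.340 and 0.550.

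The J proteins recruit clients to Hsp70, and none of the 5 was called by limma or edgeR. DNAJA1 had 58.4, 42.7 and 56.9 FPKM in shscramble and 77.5, 62.7 and 64.9 FPKM in shMETTL1. The groups did not overlap, but the limma log2 fold change of 0.38 ± 0.17 (SE) had an adjusted p of 0.356, and that of edgeR was 0.255. DNAJB1, the J partner of inducible Hsp70, had 30.9 ± 8.44 and 38.3 ± 4.96 FPKM. Its estimated counts of 184, 213 and 166 against 241, 227 and 264 did not overlap (edgeR log2 fold change 0.33, adjusted p = 0.173).

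DNAJA2 had 82.8 ± 12 and 74.4 ± 6.46 FPKM, and DNAJB6, which suppresses aggregation of polyglutamine proteins, had 110 ± 8.93 and 125 ± 24.5 FPKM. DNAJB4 had 13.3 ± 7.10 and 10.3 ± 2.41 FPKM, a spread that came largely from 21.2 FPKM in shscramble replicate 2. The estimated counts of DNAJB4 ran from 67.7 to 83.1 over all libraries, and its FPKM per estimated count varied 2.63-fold between libraries, where the median gene varied 1.34-fold.

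BAG1 and BAG3 release the nucleotide from Hsp70, and BAG3 also guides clients to autophagy. BAG1 had 12.2 ± 2.54 and 16.1 ± 0.818 FPKM, with no overlap between groups, and BAG3 had 24.0 ± 3.19 and 29.3 ± 3.97 FPKM. Neither passed edgeR (adjusted p = 0.371 and 0.365). HSPB1, the abundant small heat shock protein Hsp27, had 389 ± 154 and 396 ± 42.7 FPKM, where shscramble replicate 2 alone reached 566 FPKM, and its log2 fold change was 0.09 by limma and -0.02 by edgeR.

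**Figure D3:**
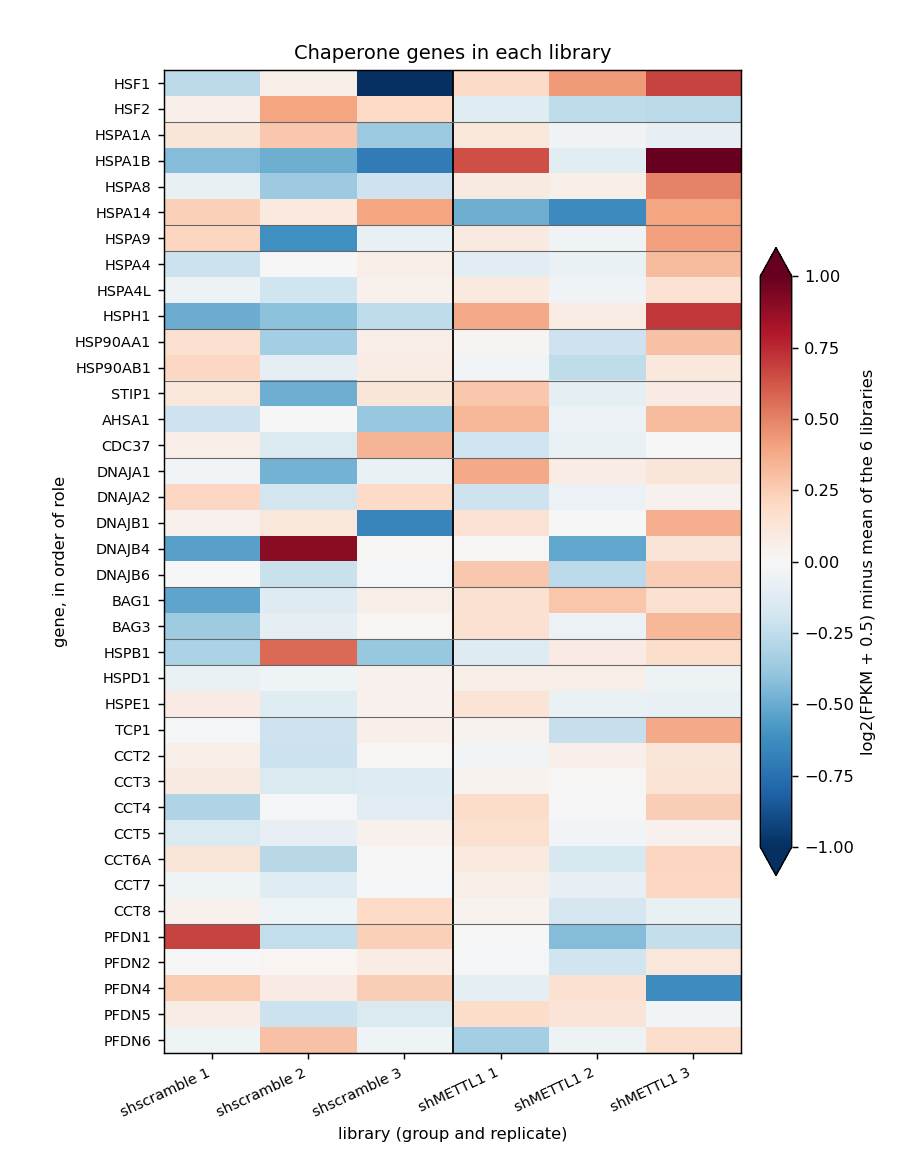
Level of each of the 38 genes in each library, as log2(FPKM + 0.5) minus the gene's mean over the 6 libraries, on a colour scale from -1 (blue) to 1 (red) with genes in order of role. HSPA1B, HSPA8 and HSPH1 are blue in the 3 shscramble columns, with HSPA8 nearly white in replicate 1 (-0.07). In shMETTL1 replicate 2, HSPA1B is pale blue (-0.11) and HSPH1 nearly white (0.07). HSPA8 is nearly white in shMETTL1 replicates 1 and 2 (0.09 and 0.06), and the other shMETTL1 cells of these genes are red.

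The map of centred levels also shows that the libraries of a group differed in their chaperone levels. The median centred value of the tested members was -0.01, -0.12 and 0.02 in shscramble and 0.06, -0.06 and 0.16 in shMETTL1, so shMETTL1 replicate 2 lay below 2 of the shscramble libraries. Without shMETTL1 replicate 3 the median log2 fold change of the members was 0.06 by limma. Leaving out 1 library at a time, edgeR called between 1 and 5 members, with HSPH1 called each time. The 5 calls came without shscramble replicate 2, when HSF1 and CCT3 joined HSPA1B, HSPA8 and HSPH1. The number of all genes called by edgeR also varied widely with the library left out, as given in the last section. The 5 calls are therefore not read as a result on chaperones.

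The mitochondrial chaperonin had limma log2 fold changes close to 0. HSPD1, the Hsp60 ring, had 764, 779 and 826 FPKM in shscramble and 832, 836 and 774 FPKM in shMETTL1. HSPE1, the Hsp10 lid of that ring, had 293, 254 and 286 FPKM in shscramble and 305, 265 and 264 FPKM in shMETTL1. The groups overlapped for both, the fold changes were 0.04 ± 0.11 and 0.00 ± 0.13 (log2, SE), and the ratio of HSPD1 to HSPE1 was 2.85 ± 0.230 and 2.94 ± 0.213 (SD, n = 3, exact permutation p = 0.7). Of the windows of 100 bases of HSPE1, 33.5% occur in transcripts of other genes, which limits its level.

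The chaperonin CCT folds actin and tubulin in a double ring of 8 related subunits, and no subunit passed limma or edgeR. For 7 of the 8 the limma log2 fold change was above 0 and for CCT8 below it (log2 fold change -0.13), with a median of 0.12. CCT4 had 44.5, 54.0 and 50.6 FPKM in shscramble and 62.4, 55.1 and 65.3 FPKM in shMETTL1. It was the subunit whose FPKM did not overlap between groups (limma log2 fold change 0.29 ± 0.15 SE, adjusted p = 0.401, edgeR adjusted p = 0.223).

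CCT3 had 145 ± 13.7 and 157 ± 7.63 FPKM, and its estimated counts of 837, 1007 and 973 in shscramble and 1223, 1194 and 1174 in shMETTL1 did not overlap. The edgeR fold change was 1.23 with an adjusted p of 0.0981, and DESeq2 on the same counts gave an adjusted p of 0.0491. The summed level of the 8 subunits was 1101 ± 72.2 FPKM (SD, n = 3) in shscramble and 1179 ± 104 FPKM in shMETTL1, with an exact permutation p of 0.4.

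Although the subunits occupy the rings in equal numbers, their RNA levels differed. Over all libraries the mean level was 198 FPKM for TCP1, 195 for CCT6A, 189 for CCT5, 151 for CCT3, 136 for CCT2, 121 for CCT8, 95.1 for CCT7 and 55.3 for CCT4. CCT4 thus lay 3.57-fold below TCP1. Neighbours in this order overlapped in their range over the libraries, with 2 exceptions. The lowest library of CCT5 (171 FPKM) lay above the highest of CCT3 (166 FPKM), and the lowest of CCT7 (87.1 FPKM) above the highest of CCT4 (65.3 FPKM). The ratio of the highest to the lowest subunit was 4.01 ± 0.714 in shscramble and 3.55 ± 0.302 in shMETTL1 (exact permutation p = 0.4). The order may be limited by sharing, as 46.4% of the windows of CCT5 and 12.5% of those of TCP1 (with ACAT2) occur in another annotated gene. ACAT2 is among the genes listed for the libraries. The gene that shares windows with CCT5 is not, so the effect on the level of CCT5 is unknown.

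**Figure D4:**
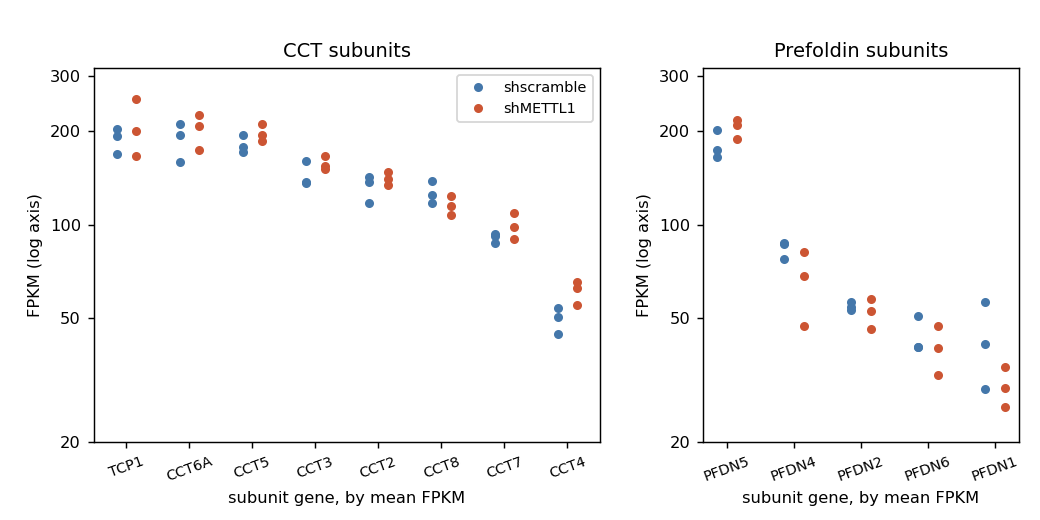
FPKM on a log axis of the 8 CCT subunits (left) and the 5 prefoldin subunits of this set (right) in each library. Points are blue for shscramble and red for shMETTL1, with subunits in order of the mean level. The CCT subunits fall from 198 FPKM for TCP1 to 55.3 FPKM for CCT4, and in prefoldin PFDN5 at 193 FPKM stands apart from the others.

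Prefoldin captures nascent actin and tubulin for CCT, and its subunits lay mostly on the other side of 0. Of the 5 subunits in this set, 4 had a log2 fold change below 0 and 1 above, with a median of -0.14, and none passed limma or edgeR. PFDN1 had 42.5 ± 13.5 and 30.2 ± 4.53 FPKM (log2 fold change -0.45, adjusted p = 0.420 by limma). PFDN4 had 83.8 ± 5.44 and 65.7 ± 17.4 FPKM (log2 fold change -0.38, adjusted p = 0.414), and its lowest value, 47.2 FPKM, came from shMETTL1 replicate 3. PFDN2 had 54.6 ± 1.56 and 52.3 ± 5.76 FPKM, and PFDN6, of whose windows 31.1% occur in RGL2, had 43.9 ± 6.13 and 40.0 ± 7.20 FPKM.

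PFDN5, the exception in direction, had 180 ± 19.0 FPKM in shscramble and 205 ± 15.2 FPKM in shMETTL1 (limma log2 fold change 0.19, adjusted p = 0.549). It was also the most abundant of the 5 subunits in this set, 5.30-fold above PFDN1. The ratio of the highest to the lowest prefoldin subunit was 4.96 ± 0.650 in shscramble and 7.01 ± 0.935 in shMETTL1, without overlap between groups (exact permutation p = 0.1). The summed level of the 5 subunits was 405 ± 31.1 and 393 ± 20.3 FPKM (exact permutation p = 0.6).

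Across all members the level spanned from HSPA8 at a mean of 1033 FPKM to HSPA1A at 0.322 FPKM. HSPA8 was followed by HSPD1 (802 FPKM), HSP90AA1 (729 FPKM), HSP90AB1 (492 FPKM) and HSPB1 (392 FPKM). The ranges of HSPA8, HSPD1 and HSP90AA1 overlapped with each other, whereas the highest library of HSP90AB1 (564 FPKM) lay just below the lowest of HSP90AA1 (569 FPKM). Of the genes that rose, HSPA8 thus stood at the top of this order, and HSPH1 (25.4 FPKM) and HSPA1B (21.6 FPKM) stood near its lower end.

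**Figure D5:**
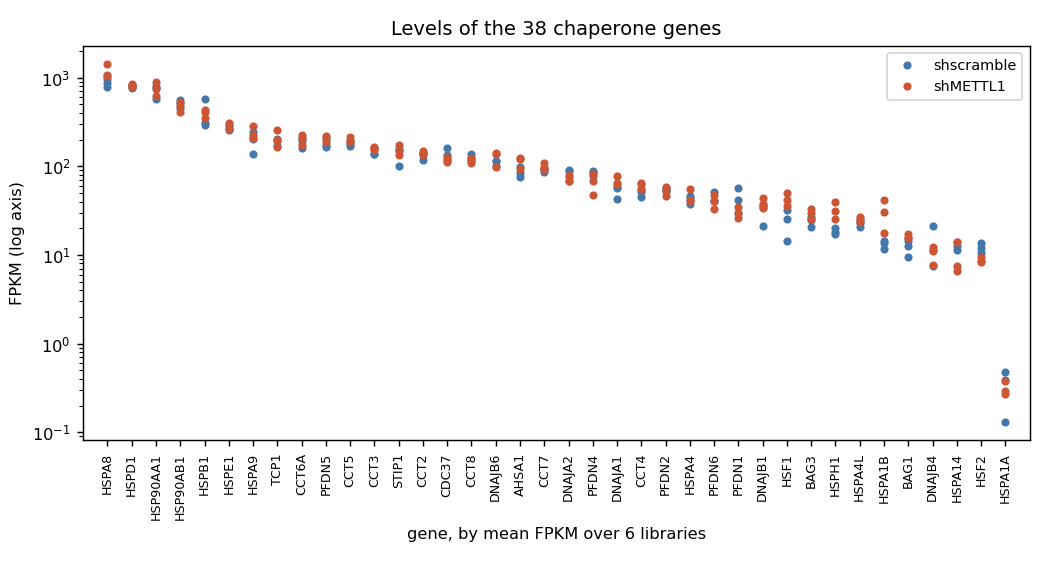
FPKM on a log axis of all 38 genes in each library, blue for shscramble and red for shMETTL1, in order of the mean over the 6 libraries. Levels run from 1033 FPKM for HSPA8 to 0.322 FPKM for HSPA1A, which lies far below the other 37 genes.

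Genes that work with these chaperones were counted in lists fixed by function, and limma called none of them. Over all genes tested, edgeR called 2.68% higher and 3.65% lower. At an unadjusted limma p under 0.05, 7.37% of all genes were higher and 6.80% lower. These shares stand beside the counts of every list from here on, and no list was tested as a set. Of 23 further cofactors of Hsp70, 20 were tested by edgeR, 0 were higher and 1 was lower. By limma their median log2 fold change was 0.06, with 4 higher and 1 lower at an unadjusted limma p under 0.05. The gene called lower was DNAJC21, a J protein of ribosome assembly, which fell from 29.2 ± 2.04 to 14.6 ± 1.07 FPKM (edgeR log2 fold change -0.78, adjusted p = 0.00633, and 0.0518 without shscramble replicate 3). The BAG proteins BAG4 (12.8 and 20.3 FPKM), BAG2 (2.82 and 5.52 FPKM) and BAG5 (28 and 36.3 FPKM), given as means of shscramble and shMETTL1, were not called. Their estimated counts moved less than their FPKM. In that order the log2 fold changes were 0.66, 0.90 and 0.37 by limma and 0.15, 0.66 and 0.09 by edgeR. The 21 further cofactors of Hsp90 gave no call by edgeR and had a limma median of 0.10, with 1 higher and 2 lower at an unadjusted limma p under 0.05. Small limma p-values belonged to CHORDC1 (42.9 and 64.2 FPKM), the cyclophilin PPID (68.6 and 46.2 FPKM) and FKBP5 (26.6 and 22.5 FPKM).

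Among 17 other mitochondrial chaperones and proteases edgeR called 1 gene higher and 0 lower, and the limma median was 0.01, with 2 higher and 1 lower at an unadjusted limma p under 0.05. GRPEL2, a nucleotide exchange factor for HSPA9, rose from 18.8 ± 0.975 to 30.4 ± 2.78 FPKM (edgeR log2 fold change 0.64, adjusted p = 0.00334). CLPB (35.1 and 24.2 FPKM), the protease LONP1 (60.4 and 83.9 FPKM) and TRAP1, the mitochondrial Hsp90 (102 and 85.2 FPKM), did not pass.

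For the partners of CCT and prefoldin, with the tubulin cofactors, 11 of 12 listed genes were tested, the limma median was 0.04 and edgeR called 0, with 0 higher and 1 lower at an unadjusted limma p under 0.05. The tubulin cofactor TBCA had means of 175 and 114 FPKM (edgeR adjusted p = 0.0850), and TBCD, PDCL and TBCB followed with 17.7 and 13.6, 8.76 and 6.80, and 72.1 and 85.2 FPKM. Of 17 substrates of CCT, 15 were tested, the limma median was 0.07 and edgeR called 0, with 2 higher and 0 lower at an unadjusted limma p under 0.05. TUBB3 (3.15 and 5.89 FPKM), TUBA1C (186 and 241 FPKM), TUBB (279 and 334 FPKM) and FZR1 (11.3 and 8.79 FPKM) had the smallest limma p-values.

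Other genes of the heat shock response gave no call either, with edgeR testing 10 of the 14 listed. Over the 11 that limma tested the median log2 fold change was 0.20, with 2 higher and 0 lower at an unadjusted limma p under 0.05. ZFAND2A, an HSF1 target, had means of 11 and 17.1 FPKM, CLU had 66.7 and 101 FPKM and SQSTM1 had 87.3 and 106 FPKM. Of 9 further small heat shock genes limma tested 3, HSPB8 (4.84 and 4.06 FPKM), HSPB6 (0.784 and 1.12 FPKM) and CRYAB (2.81 and 2.23 FPKM), and called 0, also at an unadjusted p under 0.05. Among the small heat shock genes measured, HSPB1 had the highest level.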

How the data were processed

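RNA-seq of 3 shMETTL1 and 3 shscramble LNCaP-AI libraries was analysed from 1 table per library. Its FPKM column, as deposited, is relative to the length of the transcript and the depth of the library. Its second column holds estimated counts, also deposited by the authors, which are rarely whole. Their totals are nearly equal, and whether they were scaled to a common depth is not known, so the depth in reads is unknown. Per the labels, the submitters used the build hg19 and the tools HISAT2 2.0.4, cutadapt 1.9.3, Cuffdiff and Cufflinks. Annotation, filters and strand setting are not given in the sources used here, so overlapping and antisense genes cannot be separated.

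Gene symbols were paired with 19434 of the 20308 identifiers. The main test was limma 3.58.1 (trend and robust) in R 4.3.3 on log2(FPKM + 0.5) for the 12156 genes that averaged 0.5 FPKM or more. Fold changes on this scale understate those of low genes. Beside it, edgeR 4.0.16 (quasi-likelihood, TMM) was run on the estimated counts rounded to whole numbers, after filterByExpr. Both were two-sided, with Benjamini-Hochberg adjustment over all genes tested and a threshold of 0.05, and both were tested on simulated data. Single ratios and sums were compared by exact two-sided permutation tests. Alternatives included DESeq2 1.42.0, other pseudocounts, filters and scalings, and the omission of each library.

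The members and lists were chosen with earlier results of these data known. Values in every library were given for members called by either test, for the 8 with the smallest limma p, and for HSF1, HSPA1A, HSPA1B, HSP90AA1, HSP90AB1, HSPD1 and HSPE1, and for each list up to 4 genes with the smallest limma p were named. Some genes of these lists are not reported here. The methods speak of biological replicates for the work in general, and neither they nor the labels say how the replicates of these libraries were made, so p-values measure the spread between these libraries. Promoter windows came from RefSeq (GRCh38.p14). No window was held for HSF1, HSPA14, CCT6A and PFDN2.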

Additional observations from a re-analysis of the deposited data

How the results depend on the processing

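The number of members called depended on the unit. It was 0 by limma on FPKM in that fit and in each omission of a library, 3 by edgeR, 3 by edgeR with RLE factors, 4 by DESeq2 and 3 by limma on log2 CPM. Over all genes the limma count was 15, against 4 without the filter on low FPKM, 6 with a replicate block, 712 by edgeR, 709 with RLE factors, 704 by DESeq2, 751 by limma on log2 CPM, and 3 to 189 with 1 library left out (189 without shscramble replicate 2). By edgeR the members called were 1 to 5 with 1 library left out, where 1 call was left without shscramble replicate 3, shMETTL1 replicate 1 or shMETTL1 replicate 3, and 4 with the replicate block or without the filter, while all genes gave 712, then 1094 without the filter, 1015 with the block, and 270 to 1989 with 1 library left out. The deviations of same-numbered libraries correlated at 0.00, 0.05 and -0.02, so no pairing by replicate number was seen. With 3 libraries per group this does not settle whether the libraries were paired. The block moved the number of members called by edgeR from 3 to 4 by adding HSF1. The median log2 fold change of the members stayed between 0.06 and 0.17. Against limma on FPKM, direction turned for 9 members in at least 1 alternative. Within edgeR, leaving out 1 library also turned HSPA14, HSPD1, PFDN1, PFDN5 and PFDN6. HSPE1 gave -0.027 under median-ratio scaling, -0.064 by edgeR with TMM or RLE factors, -0.061 by DESeq2, -0.065 on log2 CPM and -0.068 (without shMETTL1 replicate 1) to 0.040 with 1 library left out. HSPB1 gave -0.025 by edgeR with TMM or RLE factors, -0.021 by DESeq2 and -0.080 (without shscramble replicate 3) to 0.39 with 1 library left out. With 1 library left out, the fold changes of the others ran from -0.074 (without shscramble replicate 2) to 0.20 for HSP90AA1, from -0.033 (without shscramble replicate 2) to 0.27 for STIP1, from -0.0088 (without shscramble replicate 2) to 0.21 for CCT6A, from -0.59 to 0.14 (without shscramble replicate 2) for DNAJB4, from -0.035 (without shMETTL1 replicate 3) to 0.18 for HSPA4, from -0.038 (without shMETTL1 replicate 3) to 0.27 for TCP1, and from -0.14 to 0.019 (without shMETTL1 replicate 2) for PFDN2. The cause of these changes was not tested.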
